A study of Mus musculus with 22 samples.

Results

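Blood clotting and the complement system depend on plasma proteins that are made mainly by hepatocytes. This report describes 32 genes for such proteins, taken as a list by their function. The list holds 8 coagulation proteases and cofactors (*F2*, *F5*, *F7*, *F9*, *F10*, *F11*, *F12* and *F13b*) and the 3 fibrinogen chains (*Fga*, *Fgb* and *Fgg*). It also holds 5 genes of the contact system and fibrinolysis (*Plg*, *Kng1*, *Klkb1*, *Serpinf2* and *Cpb2*) and 5 anticoagulants (*Serpinc1*, *Serpind1*, *Proc*, *Pros1* and *Proz*). The complement genes are 6 of the activation steps and their control (*C2*, *C3*, *C4b*, *Cfb*, *Cfi* and *C4bp*) and 5 of the terminal pathway (*Hc*, *C8a*, *C8b*, *C8g* and *C9*). All 32 were among the 37991 genes of the RNA count table and among the 14183 that passed the filter on low counts. Each also had a window of 1 kb to either side of its transcription start site (TSS), among 20663 such windows in which DNA methylation could be tested.

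The libraries came from wild-type mice and from mice homozygous for *MommeD28*, a null allele of *Rlf* obtained by chemical (ENU) mutagenesis and carried in every cell. *Rlf* encodes a zinc finger protein, and the study asks how its loss alters DNA methylation and expression. RNA-seq was carried out on E14.5 livers, 3 of each genotype, and whole genome bisulphite sequencing on 2 libraries of each genotype at each of 3 stages, namely whole embryos at E10.5 and livers at E14.5 and at E18.5. All groups were of an FVB/NJ line and homozygous for a multi-copy GFP transgene driven by the human alpha-globin promoter and an enhancer. The E10.5 embryos were male and the E18.5 livers female. At E14.5 replicate 1 of each genotype was male and replicate 2 female in the bisulphite data, and in the RNA-seq data replicates 1 and 2 were male and replicate 3 female.

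Clotting runs as a chain in which each protease activates the next, until thrombin, the product of *F2*, cuts fibrinogen into fibrin. Antithrombin (*Serpinc1*), heparin cofactor (*Serpind1*), protein C (*Proc*) with its cofactor protein S (*Pros1*), and protein Z (*Proz*) hold the chain in check, while plasmin, from *Plg*, dissolves the clot. In complement, the *C3* product is cut by enzymes assembled from the *C2*, *C4b* and *Cfb* products, and the terminal proteins then form a pore in the target membrane. Hepatoblasts of the fetal liver begin to make these proteins while the organ is still mainly a site of blood formation.

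*Rlf* mRNA was at 68.9 to 72.3 CPM (counts scaled to the total of the library) in the 3 wild-type livers and at 76.3, 79.8 and 67.6 in the mutants, so the allele was not visible as a lower transcript level (adjusted p = 0.646, edgeR quasi-likelihood test). The RNA libraries held 12928313 to 14621004 counts each. The bisulphite libraries had 17 to 19 reads per listed CpG at E10.5, 31.4 to 35.4 at E14.5 and 17.6 to 18.3 at E18.5, and 0.0412% to 0.0775% of the cytosines of the unmethylated lambda control were read as methylated. Over the autosomes 70.6% to 73.9% of reads at CpGs were methylated at E10.5, 56.4% to 60.3% at E14.5 and 61.4% to 65.5% at E18.5. Hepatoblast markers (*Alb*, *Afp*, *Ttr* and 10 others) summed to 60906 to 72125 CPM in wild-type and 74730 to 86307 in mutant livers. Erythroid markers summed to 33800 to 61440 and 41420 to 45427 CPM, so that markers of both cell populations were abundant. In such bulk samples, fewer cells of a type and less RNA per cell cannot be told apart.

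In E14.5 liver the 32 genes were transcribed at very different levels. Together their CPM made up 0.94% to 1.06% of the normalised library total in the 6 livers. On a scale per length (RPKM, the CPM divided by the exon length in kilobases), the wild-type level ran from 0.689 for *Klkb1*, which encodes plasma prekallikrein, to 582 for *Serpinf2*, which encodes the plasmin inhibitor antiplasmin. *Serpinf2* was followed by the fibrinogen chains and plasminogen, at 540 RPKM for *Fgb*, 383 for *Fgg*, 352 for *Plg* and 344 for *Fga*. The next were *Serpind1* at 256, *C3* at 250, *Serpinc1* at 212, *Kng1* (kininogen) at 184, *Cfi* (the protease that inactivates C3b) at 121 and *F2* at 114. The highest levels thus came from several of the roles above. The spread between livers differed from gene to gene: the CPM of *Serpind1* was 567, 559 and 559 in wild-type livers and that of *Serpinc1* 519, 403 and 448. Places in the order were not tested against each other.

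The proteases that start the intrinsic pathway and the terminal complement proteins lay lower. *F12* was at 77.2 RPKM and *F11* at 14.6, and the chains of the eighth complement component were at 21.3 (*C8b*), 20.1 (*C8g*) and 12.7 (*C8a*). Of the factors whose lack causes haemophilia in people, *F9* was at only 2.25 RPKM, with 4.69 to 7.48 CPM in the wild-type livers. *C9* was at 2.23, *C4bp* at 1.10 and *C4b* at 1.09 RPKM. *Hc*, the gene of complement component C5, was at 3.99 RPKM, and FVB mice are known to carry a null allele of it. *Proc* (84.7 RPKM), *F10* (57.5) and *Proz* (37.6) lay in the middle of the order, and *F7* (8.82) in its lower part.

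**Figure D1:**
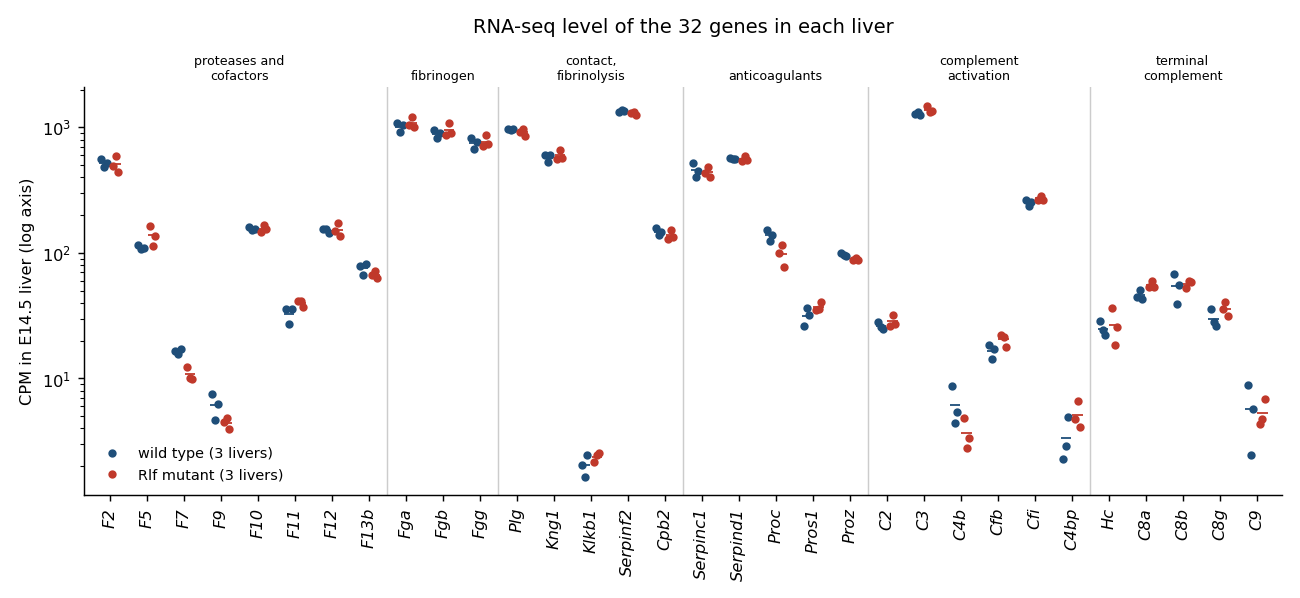
CPM (log axis) of the 32 genes in each of the 6 E14.5 livers, wild type in blue and *Rlf* mutant in red, and short lines at the group means, ordered by role. The values of most genes overlap between the genotypes, those of *F7*, *Proc* and *Proz* are lower in the 3 mutant livers, and those of *F11*, *C3*, *Cfi* and *C8a* are higher.

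Comparison of the genotypes asks whether loss of Rlf changed the output of these genes in the fetal liver. Of the 32 genes, 1 (*F7*) fell and 0 rose in the mutant livers at an adjusted p under 0.05 (edgeR quasi-likelihood test, Benjamini-Hochberg over 14183 genes). Over all genes tested, 0.698% rose and 0.691% fell. At an unadjusted p under 0.05 there were 11 of the 32 and 2071 of all genes, and DESeq2 called 2 of the 32 and 256 of the 14578 genes it tested. The median log2 fold change of the 32 was 0.04, beside 0.00 over all genes tested, and 18 of the 32 lay above 0. With 1 liver left out the median lay between -0.01 and 0.10, so the list as a whole lay close to 0. Nothing in the labels says that the livers of a group were from separate litters, so p-values measure the spread between these livers only.

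*F7* encodes the protease that starts clotting on contact with tissue factor. It was at 16.4, 15.6 and 17.2 CPM in wild-type livers and at 12.4, 10.2 and 9.83 in mutant livers. The groups did not overlap, and the log2 fold change was -0.60 ± 0.12 (SE, adjusted p = 0.0319). With 1 liver left out the log2 fold change lay between -0.71 and -0.54, and the adjusted p rose to 0.0846 and 0.0952 without wild-type replicate 1 or 3, and to 0.101 and 0.113 without mutant replicate 2 or 3.

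*Proc*, the precursor of activated protein C, which inactivates factors Va and VIIIa, had the second smallest p of the list. It was at 153, 124 and 140 CPM in wild-type livers and at 101, 116 and 76.7 in mutant livers. All 3 mutant livers again lay below all 3 wild-type livers, with a log2 fold change of -0.51 ± 0.12 (SE). The edgeR adjusted p of 0.0699 missed the threshold, but the gene passed it with DESeq2 (adjusted p = 0.0034) and in edgeR with the replicate number as a block (adjusted p = 0.0108). Mutant replicate 3 carried much of the size of the difference, which was -0.36 without it.

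The replicate block brought 3 further genes past the threshold, of which *F5* and *C4b* also passed without the filter on low counts. *F5*, the cofactor of factor Xa, was at 116, 108 and 110 CPM in wild-type and 164, 113 and 136 in mutant livers, with a log2 fold change of 0.31 ± 0.11 (SE, adjusted p = 0.193, and 0.0391 with the block). *C8a* was at 44.6, 50.4 and 43.1 CPM in wild-type and 53.6, 59.2 and 53.8 in mutant livers, with a log2 fold change of 0.27 ± 0.08 (adjusted p = 0.131, and 0.0395 with the block). *C4b* was at 8.77, 4.43 and 5.40 CPM in wild-type and 4.81, 2.81 and 3.37 in mutant livers, with a log2 fold change of -0.75 ± 0.27 (adjusted p = 0.209, and 0.0235 with the block). Leaving out 1 liver moved these values, to 0.17 for *F5* without mutant replicate 1 and to -0.43 for *C4b* without wild-type replicate 1. The mutant livers were thus higher for *F5* and *C8a* and lower for *C4b*, with groups that overlapped for *F5* and *C4b*. *C4b* is nearly identical to its neighbour *C4a*, and reads that fit both could not have been assigned to either, so its values are uncertain. Over all genes, the block raised the calls from 197 to 460.

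Groups that did not overlap were found for 7 of the 32 genes (20.3% of all genes tested). All 3 mutant livers were above all 3 wild-type livers for *F11*, *C3*, *Cfi* and *C8a*, and below for *F7*, *Proc* and *Proz*. For *C3* the values were 1272, 1323 and 1261 CPM against 1485, 1324 and 1344, a log2 fold change of only 0.11. For *F11*, the protease that activates factor IX, they were 35.6, 27.2 and 35.5 against 41.2, 41.1 and 37.4 (log2 fold change 0.29, adjusted p = 0.205). By this measure the share of the list was close to the background. At an unadjusted p under 0.05 (edgeR) it was larger, with 11 of 32 beside 2071 of 14183 genes. With the replicate block the called share was also larger, with 5 of 32 beside 460 of 14183. Whether the list differs from other genes was not tested.

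**Figure D2:**
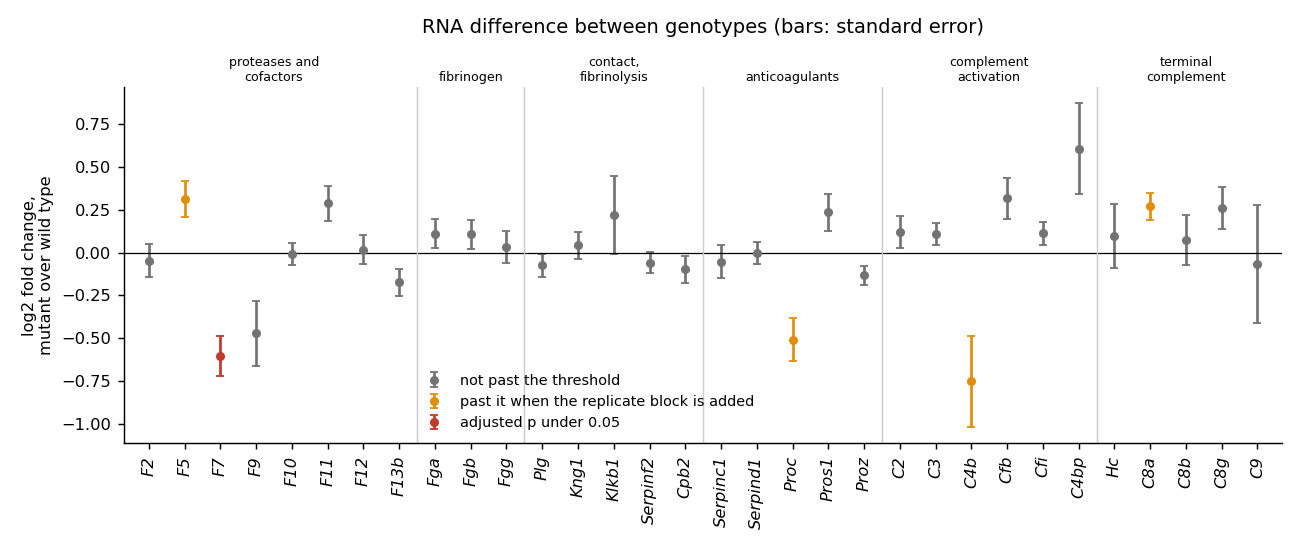
Log2 fold change of mutant over wild-type E14.5 liver for each gene, with bars of 1 standard error, from the edgeR fit. *F7* (red) passed the threshold, *F5*, *Proc*, *C4b* and *C8a* (orange) passed it when the replicate block was added to this fit, and the other genes (grey) in neither of these fits.

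The highly expressed genes moved little. The log2 fold changes of the fibrinogen chains were 0.11 (*Fga*), 0.11 (*Fgb*) and 0.03 (*Fgg*), each with an SE of 0.08 to 0.09. *Serpinf2* was at -0.06, *Plg* at -0.08, *Serpinc1* at -0.05, *F2* at -0.05, *Serpind1* at 0.00, *Kng1* at 0.04 and *Cpb2*, a carboxypeptidase that protects fibrin, at -0.10. *Kng1* has a close relative beside it, *Kng2*, with which it may share reads. Among the low genes the standard errors were wider. *F9* did not pass the threshold, at -0.47 ± 0.19 (adjusted p = 0.273), with 7.48, 4.69 and 6.31 CPM in wild-type and 3.93 to 4.83 in mutant livers. *C4bp*, which encodes an inhibitor of the C4b enzyme, was at 0.60 ± 0.27 and *Klkb1* at 0.22 ± 0.23. *Hc* was at 0.10 ± 0.19 and *C9* at -0.07 ± 0.34. The remaining log2 fold changes lay between -0.17 (*F13b*, a carrier of the fibrin cross-linking enzyme) and 0.32 (*Cfb*).

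The genes of the list sit partly in clusters, and their values could be read side by side. *F7*, *F10* and *Proz* follow each other on chromosome 8, with 1499 bp between *F7* and *F10* and 4.23 kb between *F10* and *Proz*. *F7* fell, while the log2 fold change of *F10* was -0.01 ± 0.07 and that of *Proz* -0.13 ± 0.06 (adjusted p = 0.301). Likewise *C8a* and *C8b*, 11.1 kb apart on chromosome 4, had log2 fold changes of 0.27 and 0.07. *C2* and *Cfb* are separated by 86 bp on chromosome 17 and a further gene model overlaps them there. Counting did not use strand, so reads of overlapping genes cannot be told apart, and the log2 fold changes of 0.12 and 0.32 are uncertain. Differences between neighbours were not tested.

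Other genes of the same systems were read from 2 lists. Over all genes tested 0.698% rose and 0.691% fell. Of 29 further coagulation genes tested 3 rose, 0 fell and the median log2 fold change was 0.09. *Pzp*, a broad protease inhibitor, was at 446, 344 and 460 CPM in wild-type and 752, 684 and 586 in mutant livers (log2 fold change 0.69, adjusted p = 0.0129). *F2r*, a thrombin receptor, and *Tfpi*, the inhibitor of the tissue factor pathway, had log2 fold changes of 0.35 (adjusted p = 0.0319) and 0.31 (adjusted p = 0.0493). Of 34 further complement genes tested 2 rose and 1 fell, with a median of 0.02. *Clu*, which encodes clusterin, an inhibitor of the terminal complex, rose by 0.54 on the log2 scale (adjusted p = 0.00516), and *C1s*, a protease of the classical pathway, by 0.33 (adjusted p = 0.0400). *Masp2*, the protease of the lectin pathway, was at 29.7, 23.7 and 24.9 CPM in wild-type and 9.86, 11.4 and 7.72 in mutant livers (log2 fold change -1.43, adjusted p = 5.3e-04), the largest change of either list. The genes that moved thus came from several branches of both systems. With the replicate block the counts were 5 rising and 0 falling coagulation genes, and 2 rising and 4 falling complement genes. That block called 460 of all 14183 genes.

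Some markers of other cell types differed between the genotypes in the same livers, where 0.698% of all genes tested rose and 0.691% fell. Of 9 neutrophil markers 6 fell (*Elane*, *Ngp*, *Ltf*, *Camp*, *S100a8* and *S100a9*), and the list summed to 912 to 1330 CPM in wild-type and 753 to 877 in mutant livers. Of 8 macrophage markers tested 1 fell, *Cd5l*, by 1.19 on the log2 scale. The median of the list was 0.00, and it summed to 445 to 466 and 335 to 390 CPM. The other 7 did not pass: *Marco* was at -0.59, *Emr1* at -0.26, *Aif1* at -0.06, *Mrc1* at 0.06, *Csf1r* at 0.09, *Timd4* at 0.14 and *Cd68* at 0.22. With the replicate block *Marco* passed too (adjusted p = 0.0235). Of 10 megakaryocyte markers 2 rose (*Itgb3* and *Pf4*), or 4 with the block, and the list summed to 662 to 717 and 832 to 925 CPM. Of 13 hepatoblast markers 1 rose (*Trf*, transferrin, log2 fold change 0.46), with a median of 0.17. The 18 hepatocyte transcription factors tested had a median of 0.07, the 14 erythroid markers -0.15, the 9 endothelial markers 0.17 and the 11 mesenchymal markers 0.15. In each of these lists 0 genes were called, with or without the block. Their part in the values of the 32 genes was not tested.

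DNA methylation in the windows fell sharply between the E10.5 embryo and the E14.5 liver, for nearly the whole list. In wild-type E10.5 embryos 28 of the 32 windows were above 50% methylated, and the median over the 32 was 81.2%. In wild-type E14.5 livers the median was 55.5%, and in E18.5 livers 53.5%. From E10.5 to E14.5, 29 of the 32 windows fell and 0 rose at an adjusted p under 0.05 (edgeR on methylated and unmethylated reads, 20663 windows), with a median difference of -21.8 points. With 1 library left out, 27 to 28 fell. *F5*, *Fgb*, *Kng1* and *C3* were the members whose call was lost in at least 1 of these fits, *Fgb* without wild-type embryo replicate 2 (adjusted p = 0.0594) or E14.5 replicate 1 (0.0777), and *Kng1* (0.0552) and *C3* (0.0542) without that embryo. Smaller windows ended some calls. Within 500 bp of the TSS *F2* was not called (-7.83 points, adjusted p = 0.0940), and within 250 bp 19 of 24 genes fell. Over all windows of 1 kb to either side 40.4% fell and 15.2% rose, and the median difference was -0.59 points.

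Most windows of the genome are CpG-rich and hardly methylated, which sets that background apart from these genes. The 32 windows held a median of 17 CpGs with enough reads, beside 55 over all windows, whose median level was 7.50% at E10.5. Among the 6924 windows above 50% at E10.5, 91.9% fell, with a median of -20.5 points. Of the 28 such windows of the list 27 (96.4%) fell, with a median of -23.4 points. The fall at these genes was thus near that of other windows that start out methylated, and it accompanied the lower level over the autosomes. Windows of the erythroid, neutrophil and endothelial marker genes had median differences of -32.1, -26.5 and -33.9 points, those of macrophage and megakaryocyte markers -21.7 and -27.5, and those of hepatoblast markers -21.5. The windows of hepatocyte transcription factors and of mesenchymal markers were at 0.20 and 0.83. The other coagulation and complement genes were at -3.83 and -17.5. Tissue and stage differ together in this comparison and cannot be told apart. Both wild-type embryos and E14.5 replicate 1 were male and E14.5 replicate 2 was female. The medians over the list were 54.5% in the male and 56.5% in the female liver, beside 80.5% and 82.0% in the embryos, and with the female liver left out the median difference was -23.7 points.

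The largest falls were at *F9*, *F13b* and genes of the terminal complement pathway. At *F9*, on the X chromosome, the 2 wild-type embryos were at 92.7% and 88.2% and the 2 wild-type E14.5 livers at 52.3% and 51.0%, a difference of -38.8 points (adjusted p = 8.7e-06). The mutant E14.5 livers were at 49.2% (male) and 61.8% (female), farther apart than the wild-type male and female livers. At *F13b* the levels were 77.5% and 91.0% against 50% and 47.5%, over only 5 CpGs. At *C8a* they were 86.8% and 87.2% against 51.5% and 56.7%. For *C9*, *Hc*, *C8b* and *Fgg* the differences were -31.7, -31.4, -31.0 and -30.1 points. In all of these windows both livers lay below both embryos by a wide margin. The other 22 falling windows ran from -26.5 points (*Cpb2*) to -2.50 (*C2*).

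The DNA just upstream of these starts is shown for the 5 windows with the largest falls and for *F7*, the gene whose RNA fell, to let the reader see how few CpGs they hold. Each line gives the 150 bases before the TSS, 5′ to 3′ on the strand of the gene, from the mm9 reference, in which FVB mice may differ. CpG dinucleotides are in capitals.
F9 (chrX:57252491-57252640, plus strand): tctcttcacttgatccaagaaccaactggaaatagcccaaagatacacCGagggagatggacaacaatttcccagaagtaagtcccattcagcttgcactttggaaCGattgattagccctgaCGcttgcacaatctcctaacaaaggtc
F13b (chr1:141398134-141398283, plus strand): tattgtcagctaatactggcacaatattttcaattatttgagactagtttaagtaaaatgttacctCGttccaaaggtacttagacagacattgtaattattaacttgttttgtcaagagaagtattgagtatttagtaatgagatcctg
C8a (chr4:104549004-104549153, minus strand): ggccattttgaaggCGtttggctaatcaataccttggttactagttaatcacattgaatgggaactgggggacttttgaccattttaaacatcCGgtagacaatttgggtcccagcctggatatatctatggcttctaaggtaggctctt
C9 (chr15:6395177-6395326, plus strand): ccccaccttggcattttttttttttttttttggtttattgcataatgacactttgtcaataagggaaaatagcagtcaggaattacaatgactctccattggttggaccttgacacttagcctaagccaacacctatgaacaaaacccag
Hc (chr2:34916959-34917108, minus strand): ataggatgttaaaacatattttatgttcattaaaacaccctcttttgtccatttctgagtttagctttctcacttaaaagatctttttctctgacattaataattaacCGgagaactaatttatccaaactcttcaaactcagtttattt
F7 (chr8:13025884-13026033, plus strand): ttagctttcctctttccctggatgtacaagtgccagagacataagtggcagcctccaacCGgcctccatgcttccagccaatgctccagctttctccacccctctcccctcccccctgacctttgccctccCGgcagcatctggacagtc

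Most CpGs in capitals could be read singly, with the reads of the 2 wild-type libraries of a stage pooled. The CpGs of *Hc* (1 read at E10.5) and *F13b* (8 reads at E18.5) had too few reads and are left out. The CpG that lies 102 bases upstream of the *F9* start was methylated in 88.0% of 50 reads at E10.5, 39.3% of 84 at E14.5 and 35.6% of 73 at E18.5. The CpG at 44 bases was at 95.5%, 40.6% and 40.3%, and that at 27 bases was at 89.7%, 67% and 56.7%, so that it fell less by E14.5. At *C8a* the CpG at 56 bases went from 93.8% to 57.6% and the one at 135 bases from 44.4% of 27 reads to 16.1% of 56. *F7* differed from these: its CpGs at 91 and 19 bases were at 22.9% and 25.4% at E10.5 and at 31.0% and 30.7% at E14.5. Its window as a whole fell by 19.2 points, and the levels farther out were 84.2% at E10.5 and 45.5% at E14.5 at the 3 CpGs more than 500 bp upstream, and 78.6% and 37.2% at the 3 CpGs more than 500 bp downstream. Within 250 bp of the start the *F7* difference was -3.18 points (adjusted p = 0.70).

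Short motifs were searched in these 150 bases on both strands. GTTAAT, a part of the site of the liver factor HNF1, was in 8 of the 32 promoters (25%: *F2*, *F13b*, *Fga*, *Fgb*, *Plg*, *C4bp*, *Hc* and *C8a*) and in 3.11% of 22359 promoters of the same length. TTNNGNAA, a form of the site of C/EBP factors, was in 11 (34.4%) and in 20.9% of all. TATAAA was in 0 of the 32 and in 7.87% of all, and CG in 28 (87.5%) and in 87.4%. GTTAAT thus had the widest gap between the list and all promoters among these 4 motifs. Most windows of the genome are richer in CpGs than those of the list, and shares among promoters of like CpG content were not worked out. The hits are matches of letters and not sites of binding.

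Some windows did not follow the rest or overlap another gene. *Pros1* starts in CpG-rich sequence, and its window stayed at 1.3% and 1.6% in wild-type embryos and 1.1% and 1.9% in E14.5 livers. *F5* was low from the start, at 20.9% and 19.1%, then 14.6% in both livers (-5.42 points, adjusted p = 0.0269). That call was lost without wild-type embryo replicate 1 (0.143), without E14.5 replicate 1 (0.0870) or replicate 2 (0.0909) and within 250 bp of the TSS (-2.98 points, 0.136). The window of *C8g* overlaps *Fbxw5*, which starts 969 bp away, and was at 17.2% and 21.6%, then 20.4% and 22.7%. Within 500 bp of the TSS, however, methylation fell by 12.2 points (adjusted p = 0.0395). That of *C2* covers the start of *Ehmt2*, 17 bp away, and was at 4.2% and 2.6%, then 0.9% in both livers, a fall that did not pass within 500 bp (adjusted p = 0.472) or 250 bp (0.338). *C2* has several annotated starts. At the one farthest downstream among its long transcripts, 16.4 kb away, the level was 24.3% at E10.5 and 32.7% at E14.5. This was a rise of 8.42 points (adjusted p = 0.0245), in an alternative chosen after seeing the data. The *Klkb1* start used lies inside *Cyp4v3*, and at the start 13.6 kb downstream the level was 90.5% at E10.5 and 58.3% at E14.5. *C4bp*, with 3 CpGs, was at 84.8% and 70%, then 56.7% and 60.9% (adjusted p = 0.0564). It passed on autosomes only (0.0128), with the 4 libraries alone (0.0431), without wild-type embryo replicate 2 (0.0306) and with at least 3 reads per CpG (-24.3 points, 0.00334).

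**Figure D3:**
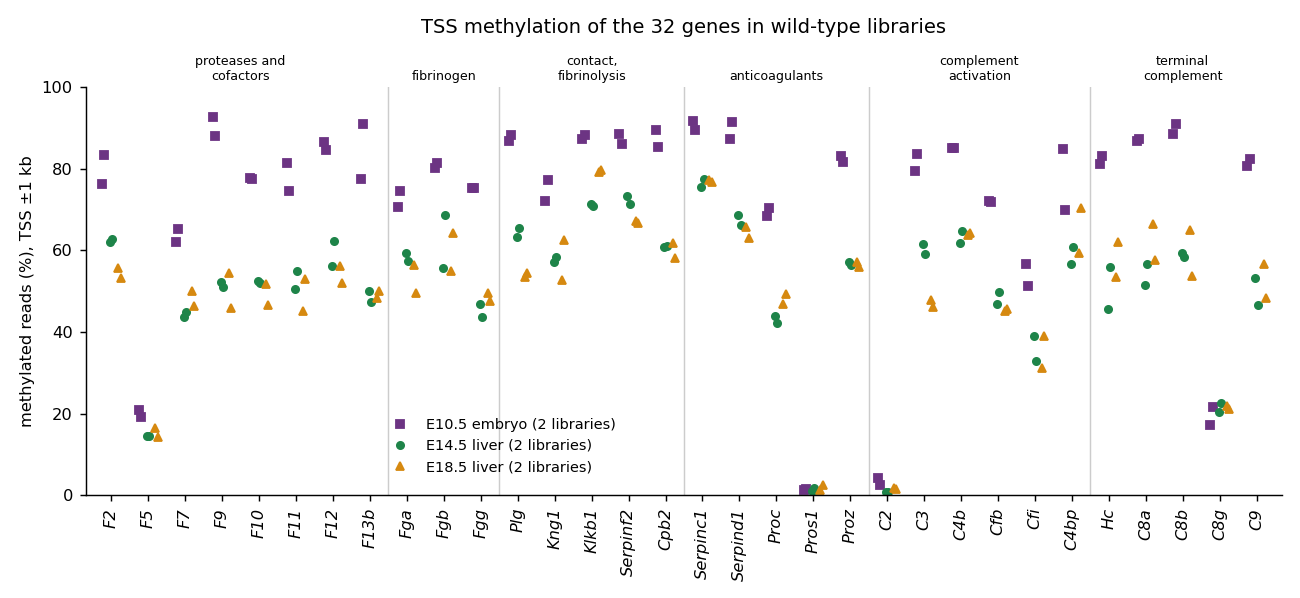
Percent of methylated reads in the window of 1 kb to either side of each TSS in the wild-type libraries, 2 points for each stage. The embryos (squares) lie above the livers (circles and triangles) at most genes, and *F5*, *Pros1*, *C2* and *C8g* lie below 30% at all stages.

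After E14.5 the windows of the list showed no called difference. These are bulk levels, and the study states that the cell make-up of the liver changes between these stages, with hepatoblasts dominant by E18.5. From wild-type E14.5 to E18.5 liver 0 of the 32 windows passed the threshold, and 3 had an unadjusted p under 0.05, beside 3957 of all 20663 windows. The median difference was -0.13 points, and -2.12 within 250 bp of the TSS. Over all windows 0.126% rose and 0.0145% fell. The 6924 windows above 50% at E10.5 had a median difference of +5.61 points, and the 28 of the list -0.63. *Plg* went from 63.3% and 65.5% to 53.5% and 54.5%, and *C3* from 61.5% and 59.2% to 47.8% and 46.2%. *Klkb1* went the other way, from 71.5% and 70.8% to 79.3% and 79.6%, and *C8a* from 51.5% and 56.7% to 66.4% and 57.7%. At the downstream start of *Klkb1* the level was 58.3% at E14.5 and 56.6% at E18.5. None of these single differences passed (adjusted p = 0.137 for *Plg*, 0.263 for *C3*, 0.310 for *Klkb1* and 0.282 for *C8a*).

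Among the wild-type groups, the E18.5 livers had their lowest median in a bin next to the TSS. In bins of 500 bp, the median over the members in wild-type E18.5 liver was 50.8% in the bin just upstream of the TSS and 53.0% just downstream. It was 71.5% from 1500 to 1000 bp upstream and 64.1% from 1000 to 1500 bp downstream. In E14.5 liver the values at the start were 56.3% and 54.9%, with 63.0% and 57.0% in those flanking bins. In E10.5 embryos they were 79.7% and 80.5%, with 85.4% and 84.9%. The lowest bin was 3500 to 4000 bp downstream in wild-type E14.5 livers (54.3%) and E10.5 embryos (79.5%).

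**Figure D4:**
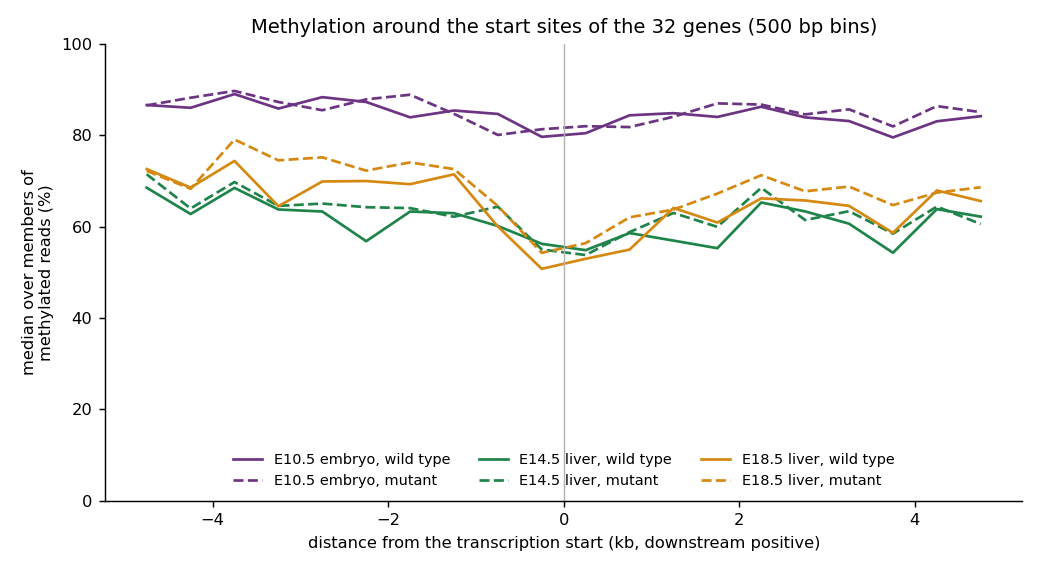
Median over the members of the percent of methylated reads in 500 bp bins from 5 kb upstream to 5 kb downstream of the TSS, by stage (colour) and genotype (solid, wild type; dashed, mutant). The embryo lines stay near 80% to 90%, and the liver lines are lower, with the lowest wild-type E18.5 value, 50.8%, just upstream of the start.

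Methylation and RNA level were compared across the members in wild-type E14.5 liver. Over the 32 genes Spearman's rho between the window's methylation and the RPKM was 0.34 and Pearson's r with log2(RPKM + 0.1) was 0.27. Within the list, genes with lower methylation in bulk liver thus did not tend to have higher RNA levels. The study cites erythroblasts as the majority of E14.5 liver cells and hepatoblasts as a smaller part. The percents are averages over all cells of the liver, and levels in hepatoblasts alone were not measured. *Serpinf2*, *Serpind1* and *Serpinc1*, at 73.4% and 71.4%, 68.6% and 66.3%, and 75.5% and 77.6%, were among the highest in both, while *Klkb1*, at 71.5% and 70.8%, had the lowest RPKM of the list. The *Klkb1* start used lies inside *Cyp4v3*, and at its downstream start the mean level was 58.3%. The *Serpind1* start lies inside *Pi4ka*. Genes are not independent replicates, and the points share libraries and CpG density.

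In the main fit the windows of the list had no called difference between the genotypes at any of the 3 stages. At E10.5, 0 of 32 passed (3 at an unadjusted p under 0.05, and 2600 of the 20663 windows), beside 0.634% of all windows that rose and 0% that fell, and the median difference was 0.22 points (-0.09 to 0.52 with 1 library left out, and 1.78 within 250 bp), beside 0.37. At E14.5, 0 of 32 passed (1 at an unadjusted p under 0.05, and 1862 of all), beside 0.126% that rose and 0% that fell, with medians of 0.86 (0.14 to 1.26 with 1 library left out) and 0.43. At E18.5, 0 of 32 passed (6 at an unadjusted p under 0.05, and 1858 of all), beside 0.198% and 0%, with medians of 1.32 and 0.24. The median over the list at E18.5 was 61.2% and 56.6% in the mutant libraries and 54.0% and 52.6% in the wild-type libraries. Among the E18.5 libraries mutant replicate 1 also had the highest level over the autosomes, 65.5%. With 1 library left out the median difference ran from 0.0707 to 4.48, the latter without mutant replicate 2.

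Both mutant libraries were above both wild-type libraries in 7, 9 and 9 of the 32 windows at E10.5, E14.5 and E18.5, and below in 4, 4 and 1. Over all windows the shares above were 34.1%, 36.1% and 27.8%, and those below 7.96%, 8.45% and 10.7%. The shares of the list were below those of all windows in the direction of gain at E10.5 and E14.5 and about equal at E18.5. Most of all windows are CpG-rich and hardly methylated, unlike the list. Shares among windows of like level were not worked out, so the list cannot be said to gain less often than comparable windows. *Cfb* and *Proc* were above at all 3 stages. The test of genotype by stage called 0 of the 32 windows (2 at an unadjusted p under 0.05, and 773 of all) and 0% of all.

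*Proc* was the member with the smallest p at E10.5 and E14.5. The window was at 68.5% and 70.3% in wild-type and 79.7% and 79.8% in mutant embryos. At E14.5 it was at 44.0% and 42.3% in wild-type and 55.8% in both mutant livers, and at E18.5 at 46.8% and 49.4% against 57.2% and 54.6%. The groups did not overlap at any stage, and the mutants were higher by 10.3, 12.7 and 7.80 points. The adjusted p was 0.0617, 0.132 and 0.448. Around the other annotated start of *Proc*, 1365 bp downstream, the E14.5 means were 49.03% and 56.4%, a difference of 7.35 points. Without the sex chromosomes, on which the male and female E14.5 libraries differ, the first 2 differences passed (adjusted p = 0.0167 and 0.0276). They also passed with the replicate block within stage (adjusted p = 0.0149 and 0.0225), and at E14.5 that block is also the sex. The shares of all windows called in these fits are not given here. Under other alternatives the adjusted p of these 2 differences reached 0.552 and 0.861. With 1 library left out the 2 differences ran from 9.41 to 11.2 and from 11.8 to 13.5 points. With 2 libraries against 2 an exact permutation test of a single window cannot go below p = 0.333.

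The higher methylation of *Proc* was spread over its window. Of its 35 CpGs, 33 were higher in the mutants at E10.5, 32 at E14.5 and 27 at E18.5, with the 2 libraries of a group pooled. Both mutant libraries were above both wild-type libraries at 18, 24 and 16 of the 35, and below both at 2, 0 and 3. Over all 654 CpGs of the list, 295, 297 and 328 were higher in the pooled mutants and 229, 230 and 188 lower. In E14.5 liver the 10 CpGs in the 500 bp upstream of the TSS were at 36.3% in wild-type and 49.6% in mutant livers, and the 14 in the 500 bp downstream at 45.4% and 60.4%. The 4 CpGs farther upstream were at 72.7% and 79.2%. The gene's RNA, as given above, was lower in the mutant livers of the same stage. Both mutant E14.5 livers lay above both wild-type livers in 9 windows of the list. Mean RNA was lower in the mutants for *Proc*, *F7*, *Proz* and *Serpinc1* among these, and higher for *F5*, *Klkb1*, *Cfb*, *C8a* and *C8g*. At *C8a* the windows were at 51.5% and 56.7% in wild-type and 63.1% and 61.0% in mutant livers, with an RNA log2 fold change of 0.27. A link between methylation and RNA differences was not tested. At *Proc* the mutants at E14.5 remained below the embryos of either genotype.

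**Figure D5:**
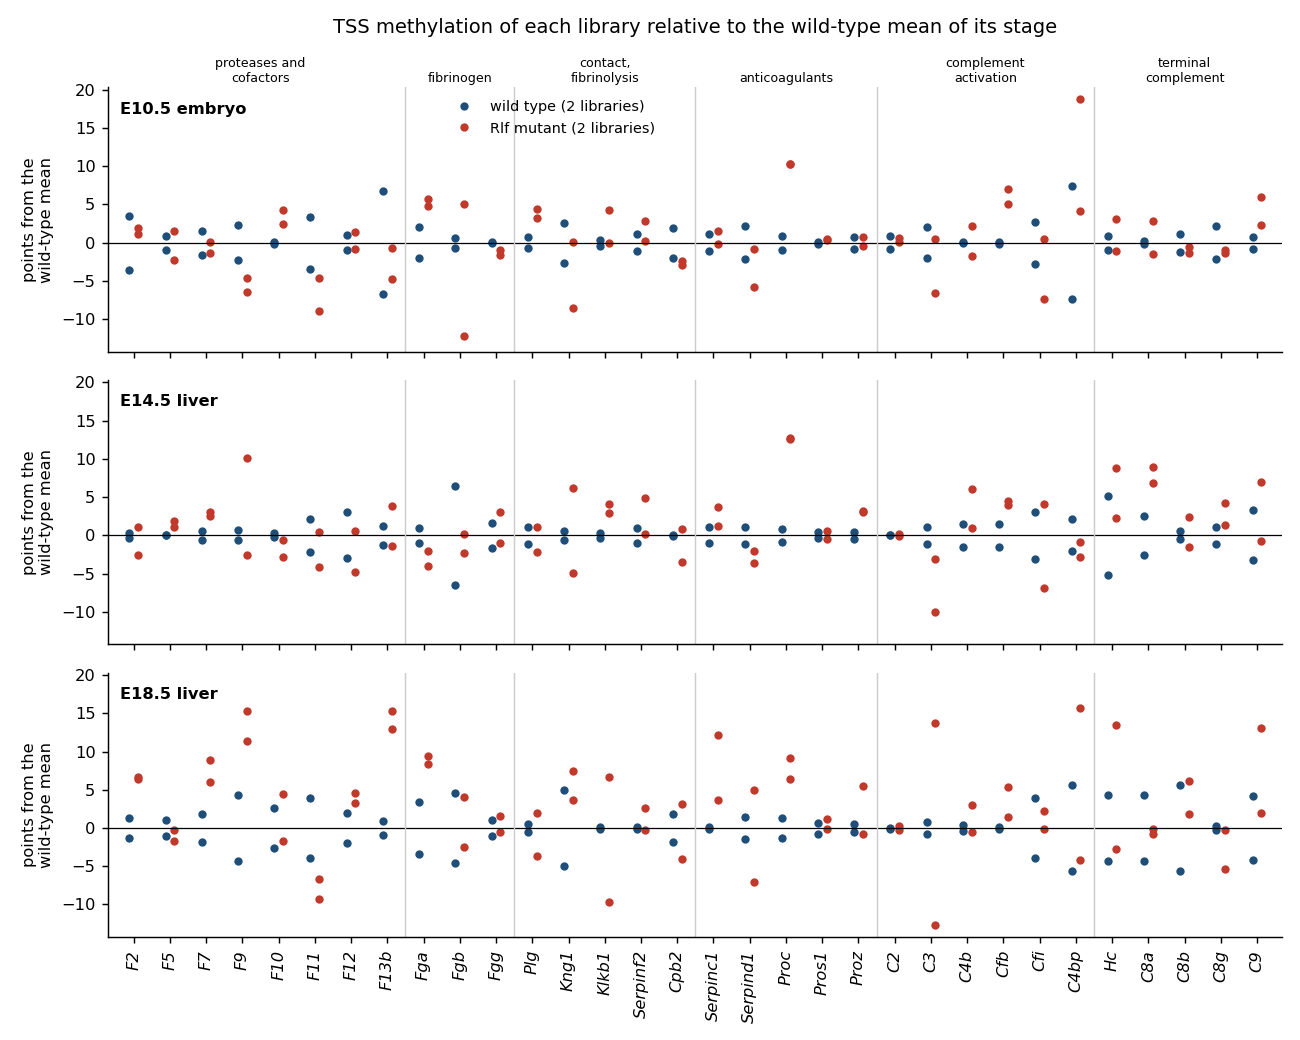
TSS methylation of each library in percentage points from the wild-type mean of its stage, wild type in blue and mutant in red, with 1 panel for each stage. At *Proc* both mutant libraries lie above both wild-type libraries in all 3 panels, by 10.3, 12.7 and 7.80 points on average.

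At *F7*, the gene with the called fall in RNA, the window was at 62.0% and 65.2% in wild-type and 62.2% and 63.6% in mutant embryos. At E14.5 it was at 43.8% and 45.0% against 47.0% and 47.4%, and at E18.5 at 50.1% and 46.5% against 57.2% and 54.3%. The differences were -0.66, 2.79 and 7.47 points (adjusted p = 0.958, 0.851 and 0.488). The genotypes thus overlapped in the embryo, and in both liver stages the 2 mutant libraries lay above the 2 wild-type libraries.

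At E18.5 the members with an unadjusted p under 0.05 were *F13b* (+14.1 points), *F9* (+13.4), *Fga* (+8.91), *Serpinc1* (+7.95), *Proc* (+7.80) and *F7* (+7.47), with adjusted p from 0.433 to 0.521. All were higher in the mutants. At *F9* the wild-type livers were at 54.5% and 45.9% and the mutant livers at 61.6% and 65.5%. At *Serpinc1* they were at 77.3% and 76.9% against 89.3% and 80.8%. Mutant replicate 1 was the higher one at *Serpinc1* but not at *F9*. *F11* and *C8g* did not pass, with differences of -7.93 and -2.80 points.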

How the data were processed

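Deposited gene counts for 6 E14.5 livers and deposited counts of methylated and unmethylated reads per CpG for 12 bisulphite libraries were used. Per the labels and the study's methods, the authors aligned polyA RNA-seq reads with TopHat and counted them on Ensembl genes with HTSeq without regard to strand, and aligned bisulphite reads with Bismark and Bowtie2 to mm9 altered at FVB variants, and removed PCR duplicates. The study's H3K4me1 libraries were not analysed here.

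RNA counts were tested with edgeR 4.0.16 in R 4.3.3 (quasi-likelihood test, TMM factors, filterByExpr, Benjamini-Hochberg over 14183 genes). CPM scale the counts to the library total over the genes that passed the filter, multiplied by the TMM factor. RPKM also divide by the summed exon length. The 786 identifiers without a symbol remained in the table. For methylation, CpGs read at least 6 times in every one of 12 libraries were summed in windows of 1 kb to either side of the TSS with at least 3 such CpGs. Methylated and unmethylated reads were then tested in 1 edgeR model of the 12 libraries, with Benjamini-Hochberg adjustment over 20663 windows. Genotype was compared within each stage, and wild-type stages with each other. The windows of the 32 genes held 3 to 86 CpGs and 11.5 to 63.4 reads per CpG, and 52 to 2575 reads in a library. Groups came from the labels, and a threshold of 0.05 on the adjusted p was used. Scripts were tested on simulated data.

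All 32 genes are accounted for. Of other genes of both systems those past the threshold are named, at most 6 by smallest adjusted p. The 32 genes, the other lists and the tests were chosen with earlier results of these data known. Replicates differed by more than sampling noise (chi-square per degree of freedom of 2.42 to 17.5), so none was counted as a duplicate. Same-numbered RNA livers deviated together from their group means (correlation across genes of 0.15, 0.22 and 0.43, on log2 of CPM plus 1). The main RNA test has no replicate block, and the blocked value is given beside a result where it changes a call. Alternatives were other normalisations, DESeq2 1.42.0, no filter, sex as a covariate, the replicate block, other read minimums, windows and start sites, autosomes only, only the libraries compared, and each library left out.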

Additional observations from a re-analysis of the deposited data

Results flagged for a closer look

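At 3 genes the difference in TSS methylation between mutant and wild type had opposite signs at different stages, with every mutant library on the same side of the wild-type libraries within each of these stages. At *F9* it was -5.53 points in E10.5 embryos and +13.4 points in E18.5 livers (interaction of genotype and stage, edgeR, unadjusted p = 0.0221, adjusted p = 1.0). The embryos were male and the E18.5 livers female, and the gene lies on the X chromosome. At *Fga* the difference was +5.23 points in E10.5 embryos, -3.02 in E14.5 livers and +8.91 in E18.5 livers (unadjusted p = 0.0442, adjusted p = 1.0). At *F10* it was +3.38 points in E10.5 embryos and -1.71 in E14.5 livers (unadjusted p = 0.355, adjusted p = 1.0). None of these interactions passed the threshold after adjustment.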

How the results depend on the processing

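The number of the 32 genes with a called RNA difference was 1. It became 2 with DESeq2 (256 of all 14578 genes), 2 with library size only (187 of 14183) and 4 without the filter on low counts (532 of 21942). It was 2 with sex as a covariate (208 of 14183), 5 with the replicate block (460 of 14183) and 0 to 2 with 1 liver left out (66 to 224 of all genes). The members with a called genotype difference in methylation went from 0 to 1 (*Proc*) at E10.5 and at E14.5, both on autosomes only and with the replicate block within stage. The share of all windows called in those fits is not given here, so this change cannot be set against it. The same-numbered bisulphite libraries were not treated as paired in the main fit. Their deviations correlated at 0.06, 0.37 and -0.02 over the 3 stages, and at 0.07, -0.04 and -0.02 on autosomes. Same-numbered E14.5 libraries share a sex, and the study describes the E14.5 livers as littermates. Low correlations of this kind cannot show that libraries were unpaired. The E18.5 median difference lay between 0.0707 and 4.48 points with 1 library left out. From E10.5 to E14.5, windows of 250 bp to either side left 24 genes, of which 19 fell, with a median of -19.3 points, *F2* was not called within 500 bp (-7.83 points, adjusted p = 0.0940) nor *F7* within 250 bp (-3.18, 0.70), and the median lay between -23.7 and -22.1 with 1 library left out. From E14.5 to E18.5 the median was -2.12 in those windows. Spearman's rho of methylation and RNA level was 0.32 within 500 bp (27 genes), 0.20 in mutants and 0.41 from the start farthest downstream, an alternative chosen after seeing the data.

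Some small differences changed sign. With 1 liver left out the log2 fold change ran from -0.166 to 0.0473 for *F2*, -0.0585 to 0.0348 for *F10*, -0.0752 to 0.0950 for *F12*, -0.0641 to 0.0974 for *Fgg*, -0.0297 to 0.0850 for *Kng1*, -0.138 to 0.0473 for *Serpinc1*, -0.0459 to 0.0276 for *Serpind1*, -0.17 to 0.30 for *Hc*, -0.11 to 0.26 for *C8b* and -0.44 to 0.39 for *C9*. Without the filter *Serpind1* was at 0.0013. The *F7* difference between genotypes at E10.5 was 1.69 points within 500 bp, 0.082 within 250 bp and between -2.23 and 0.91 with 1 library left out. From E10.5 to E14.5, *Pros1* was at -0.45 points with at least 10 reads per CpG, -0.0930 with at least 3, -0.00229 within 500 bp and between -0.33 and 0.42 with 1 library left out. *C8g* was at -12.2 within 500 bp, -8.36 within 250 bp, -1.12 from the downstream start and between -0.0239 and 4.30 with 1 library left out, and *C2* was at 8.42 from its downstream start. The causes were not tested. Precision is limited by 2 or 3 libraries a group and, in some windows, by as few as 3 CpGs.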
